A study of Mus musculus with 21 samples.

Results

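The comparison described here sets hPTH(1-34), the N-terminal fragment of human parathyroid hormone known as teriparatide, against vehicle after 4 h in primary mouse osteoblast cultures. Its members are the 6 arrays that the treatment labels name, 3 with hPTH(1-34) at 100 nM and 3 with vehicle, out of 21 arrays in the series, and all 22180 genes that carry a single gene symbol, with the transcript cluster of the highest mean over 21 arrays standing for each gene. The other 15 arrays, 3 each, hold hPTH(1-31), PTH(1-36), bPTH(3-34) and hPTH(7-34) at 100 nM and bPTH(7-34) at 1000 nM. Cells of every group came from calvaria of C57BL/6J mice 7 to 10 days old, with no transgene named, were at passage 2, were differentiated from day 3 with beta-glycerophosphate and ascorbic acid, and spent 24 h without serum from day 10 before the 4 h treatment in serum-free medium with 0.5% BSA. According to the series description, cells were prepared separately for each replicate, and 100 ng of total RNA per array was measured on Affymetrix Mouse Gene 2.0 ST arrays.

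Parathyroid hormone acts on osteoblasts through Pth1r, a G protein-coupled receptor that raises cyclic AMP and activates protein kinase A. The kinase phosphorylates the transcription factor CREB, which binds the cyclic AMP response element, and it inhibits the salt-inducible kinases, which otherwise hold CREB coactivators and class IIa histone deacetylases in the cytoplasm. In bone the hormone is known for driving both bone formation and, through signals from osteoblast-lineage cells, bone resorption.

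Cells treated with hPTH(1-34) differed from vehicle-treated cells in 1917 genes, 865 higher and 1052 lower, at an adjusted p under 0.05 in a limma fit over all 21 arrays. This was 8.64% of all genes tested, 3.9% called higher and 4.74% called lower, and these shares are the background for the gene lists below. At least 2-fold higher were 182 genes and at least 2-fold lower 71, together 1.14% of genes. In 1904 of the 1917 genes the 3 hPTH(1-34) arrays did not overlap the 3 vehicle arrays, as in 23.4% of all genes. The median difference over all genes was -0.01. All values below are log2 signals, each difference is hPTH(1-34) minus vehicle on that scale with the standard error of the fit, and adjusted p-values are Benjamini-Hochberg values over all 22180 genes. A level is compared only within a gene, since probes for different genes differ in response.

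Arrays within a group correlated at r = 0.9907 to 0.9927 and arrays of different groups at r = 0.9859 to 0.9874, both across genes, which are not independent replicates. The 18 osteoblast markers measured had a mean level of 7.86 to 8.02 with hPTH(1-34) and 8.05 to 8.19 with vehicle. Of these, 1 was higher and 4 were lower (27.8%). Alpl was the higher one, at 0.56. The lower ones were Pth1r at -1.10 ± 0.12, Tnfrsf11b, for osteoprotegerin, at -1.36 ± 0.15, Sp7 at -0.56 and Cdh11 at -0.32. With only the 6 arrays fitted by limma, Sp7 and Cdh11 were not called (adjusted p = 0.0814 and 0.164). Of the 5 osteoblast markers called, 3 were called under every alternative processing. Col1a1, Sparc and Bglap were among the members not called, at -0.02, -0.07 and -0.09. The 14 osteocyte markers had a mean of 6.12 to 6.17 with hPTH(1-34) and 5.88 to 5.89 with vehicle. Of these, 3 (21.4%) were higher and 0 lower by limma (0 lower at an unadjusted p under 0.05). The 3 were Ackr3 at 1.24, Pdpn at 0.95 and Gja1 at 0.82. Dmp1 (-0.34), Sost (0.24), Mepe (-0.11), Fgf23 (0.37) and Phex (0.20) were not called. The vehicle mean was under 4 for 4 of the 14 markers. Macrophage and osteoclast markers were also present, with 28 measured, a mean of 7.80 to 7.92 with hPTH(1-34) and 7.79 to 7.98 with vehicle, and 1 member higher and 1 lower. Lymphoid, erythroid and mast cell markers were near the low end of the scale, at 2.86 to 3.05 with hPTH(1-34) and 2.93 to 3.05 with vehicle, and limma called 0 of 11 (0 at an unadjusted p under 0.05). The endothelial, chondrocyte, adipocyte, muscle, neural and fibroblast lists each had at most 1 member higher and 2 lower. In the same order 12.5%, 12.5%, 8.33%, 18.8%, 7.14% and 18.8% of their members were called, against 8.64% of all genes. Changes of at least 2-fold among them were Cnn1 at 2.10, Tubb3 at 1.05 and Scx at -1.43. In such bulk cultures, fewer cells of a type and less RNA per cell cannot be told apart.

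**Figure D1:**
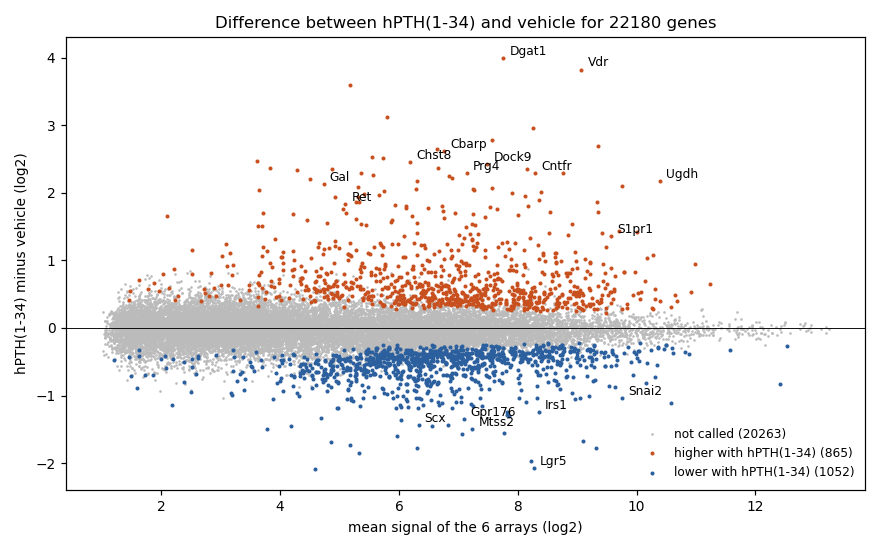
Each point is 1 of 22180 genes, with the mean log2 signal of the 6 arrays on the horizontal axis and the log2 difference of hPTH(1-34) minus vehicle on the vertical axis. Orange points are the 865 genes called higher and blue points the 1052 called lower. The upper side reaches further from 0 than the lower side, and few calls fall among the dimmest genes.

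Calls were more frequent among brighter genes. Of the 11090 genes at or above the median level, 15.9% were called, against 1.42% of the dimmer genes. No gene list was set against genes of matching level. The part of signal level in a high or low share of a list was therefore not tested. 81 gene lists covering 7133 of the genes held 788 of the 1917 called genes, and 1129 called genes were in none of them.

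**Figure D2:**
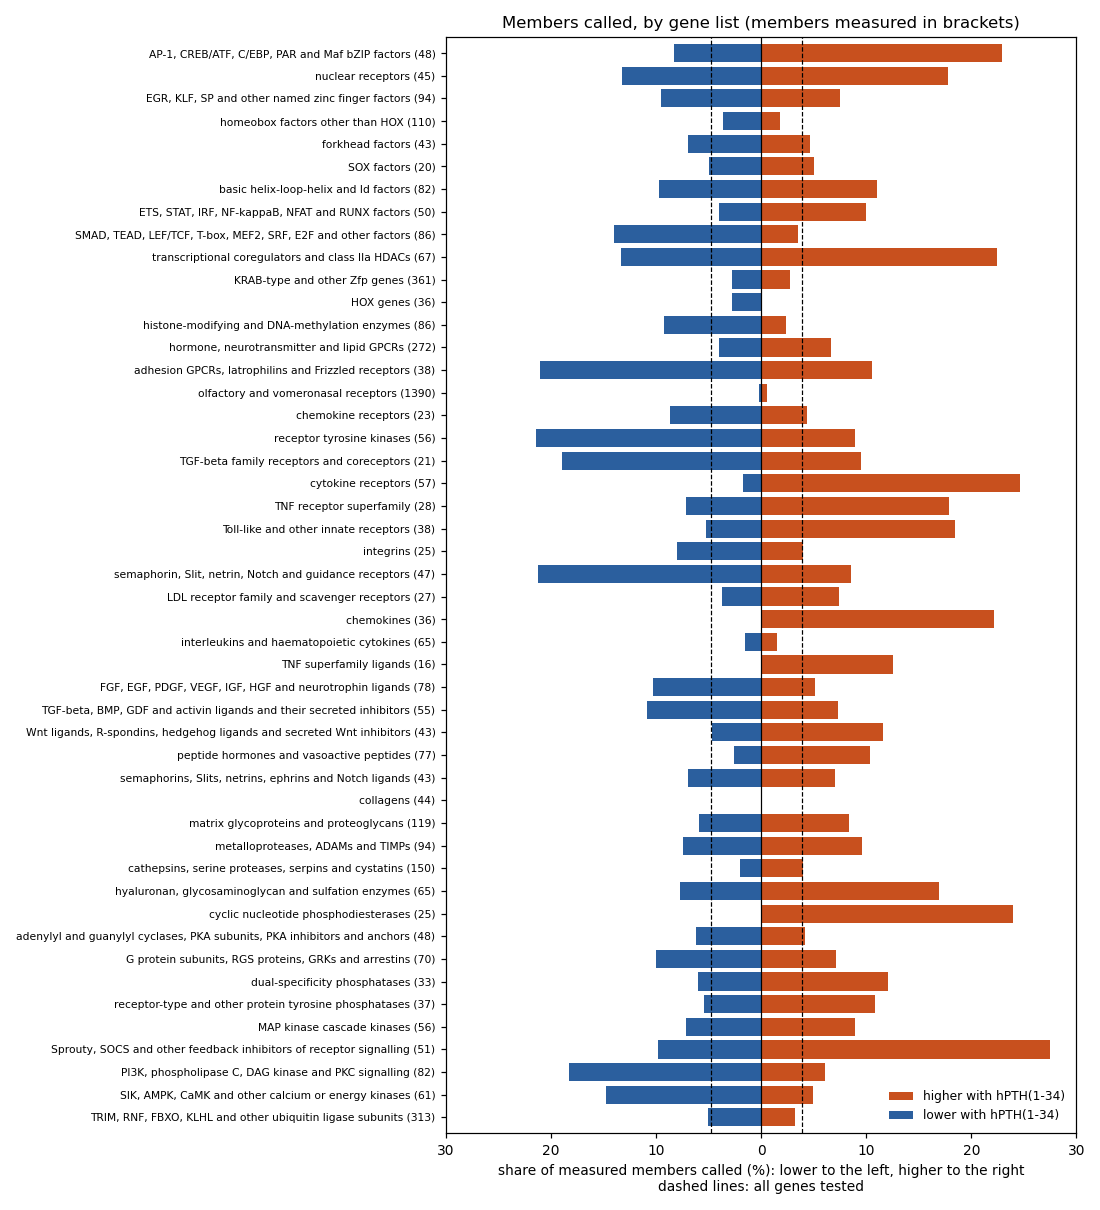
For the gene lists shown, of transcription factors, receptors, secreted factors, matrix genes and signalling genes, the bars give the percentage of measured members called higher with hPTH(1-34) (orange, to the right) and lower (blue, to the left). The dashed lines mark 3.9% higher and 4.74% lower over all genes. Cytokine receptors, chemokines and feedback inhibitors extend mainly to the right, and the phosphoinositide pathway mainly to the left.

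Families of transcription factors differed in how many members were called. Among 48 bZIP factors, the dimerising leucine-zipper proteins that include AP-1, CREB and C/EBP, 11 were higher and 4 lower, which is 31.2% called against 8.64% of all genes. Cebpb, which acts in inflammation and in mesenchymal differentiation, read 7.01, 7.04 and 7.04 with hPTH(1-34) and 5.50, 5.97 and 5.94 with vehicle. Its groups lay apart, and the difference was 1.23 ± 0.14 (adjusted p = 9.64e-06, 2.34-fold). Junb, an AP-1 subunit, stood at 7.09 ± 0.05 with hPTH(1-34) and 6.32 ± 0.28 with vehicle (SD, n = 3 each; adjusted p = 0.000257). Creb3l2, a membrane-anchored bZIP factor of the secretory pathway, rose by 0.99 ± 0.13, and Xbp1, a factor of the unfolded protein response, by 0.44 ± 0.08. Lower were Dbp, a clock-output factor, at -0.89 ± 0.16, and the CREB relative Atf7, at -0.46 ± 0.08. Jdp2 and Nfe2l1, measured with small errors, differed by -0.20 ± 0.08 and 0.02 ± 0.08 and were not called.

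Nuclear receptors, the ligand-regulated factors, had 8 members higher and 6 lower of 45 measured, or 31.1%. Beyond the strongly raised vitamin D and NR4A receptors, Ppard, a receptor for fatty acids, read 8.18, 8.10 and 8.06 with hPTH(1-34) and 7.18, 7.20 and 7.16 with vehicle. It rose in every hPTH(1-34) array relative to every vehicle array, by 0.93 ± 0.09 (adjusted p = 5.33e-07). Thrb, the beta receptor for thyroid hormone, went the other way, at 4.17, 4.15 and 4.22 with hPTH(1-34) and 5.44, 4.94 and 4.71 with vehicle, a difference of -0.85 ± 0.14 (adjusted p = 0.000318). Nr2c1 and Rora were not called, at 0.06 ± 0.08 and 0.08 ± 0.09.

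The related zinc finger repressors Snai1 and Snai2, known for their part in epithelial-mesenchymal transition, moved in opposite directions. Snai1 read 6.95, 6.91 and 6.66 with hPTH(1-34) and 5.80, 6.06 and 5.43 with vehicle (difference 1.08 ± 0.18, adjusted p = 0.00056). Snai2 read 9.20, 9.20 and 9.30 with hPTH(1-34) and 10.39, 10.26 and 10.16 with vehicle (difference -1.04 ± 0.10, adjusted p = 8.56e-07). For neither gene did the groups overlap. Across the 94 EGR, KLF, SP and other named zinc finger factors, 7 were higher and 9 lower, and Glis1 (0.76 ± 0.16) and Zic2 (0.68 ± 0.10) were further members that rose. Zfp521, a zinc finger regulator of osteoblast differentiation, fell by 0.86 ± 0.10 in the larger list of Zfp genes, where 20 of 361, or 5.54%, were called.

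Homeobox factors outside the HOX clusters had 2 members higher and 4 lower of 110. This was 5.45%, below the 8.64% of all genes. Among those lower were the related somite regulators Meox1 and Meox2. Meox2 read 7.22, 7.22 and 7.16 with hPTH(1-34) and 8.49, 8.49 and 8.37 with vehicle, 2.38-fold lower at -1.25 ± 0.10 (adjusted p = 1.03e-07). Meox1 read 3.84, 4.00 and 3.58 with hPTH(1-34) and 5.01, 4.84 and 4.44 with vehicle (-0.96 ± 0.17, adjusted p = 0.000884). The arrays of the 2 groups were separate for each. The tendon factors Scx and Mkx were lower too. Scx, a helix-loop-helix factor, read 5.50, 5.53 and 5.82 with hPTH(1-34) and 6.89, 7.03 and 7.22 with vehicle, a difference of -1.43 ± 0.15 (adjusted p = 3.08e-06). Mkx differed by -0.58 ± 0.11. Tnmd, a tendon gene, was not called at -0.04 ± 0.06, and Prrx1, a mesenchymal homeobox factor, was not called at -0.15 ± 0.07.

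In the helix-loop-helix list, 9 members were higher and 8 lower of 82. The higher ones included the clock repressor Bhlhe40 (0.77 ± 0.12), the MYC antagonist Mxd1 (0.73 ± 0.11), the hypoxia factor Epas1 (0.57 ± 0.10) and Tfec (0.67 ± 0.12), a relative of the factor MITF. Another MYC antagonist, Mxd4, was lower (-0.66 ± 0.09), as was Arnt2 (-0.80 ± 0.14), a partner of PAS-domain factors. Among forkhead factors, Foxf1 (0.76 ± 0.15) and Foxc2 (0.48 ± 0.08) rose while Foxd1 (-0.85 ± 0.13) and Foxp2 (-0.54 ± 0.10) fell, in a list of 43 with 2 higher and 3 lower. Clock, Ahr and Foxp1 differed by -0.00 ± 0.08, 0.02 ± 0.08 and 0.01 ± 0.08 and were not called.

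Of the ETS, STAT, IRF, NF-kappaB, NFAT and RUNX factors, 5 were higher and 2 lower of 50. Etv6, an ETS-family repressor, read 9.24, 9.09 and 9.04 with hPTH(1-34) and 8.08, 8.34 and 8.07 with vehicle (0.96 ± 0.10, adjusted p = 3.75e-06), and Stat3, the factor downstream of interleukin-6-type receptors, rose by 0.69 ± 0.10. Elk3, an ETS factor linked to serum response factor, fell by 0.57 ± 0.10. The list of SMAD, TEAD, LEF/TCF, T-box, MEF2, SRF, E2F and other factors leaned downward, with 3 higher and 12 lower of 86. Its members with the lowest differences were Ebf1, a factor of stromal and B-lineage cells, at -0.97 ± 0.07, Nfic, a nuclear factor I protein, at -0.81 ± 0.08, and Vgll3 and Tead2, of the TEAD system, at -0.71 ± 0.10 and -0.55 ± 0.10. Ebf1 read 8.47, 8.42 and 8.37 with hPTH(1-34) and 9.40, 9.47 and 9.30 with vehicle, so its groups were well apart (adjusted p = 2.74e-08). Smad3, a transducer of TGF-beta, was higher at 0.50 ± 0.10, whereas Smad4 and Yap1 were not called, at 0.02 ± 0.07 and -0.01 ± 0.08.

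Transcriptional coregulators had a high share of calls, 15 higher and 9 lower of 67 (35.8%). The list holds the salt-inducible kinases and the class IIa histone deacetylases that they phosphorylate. Sik1 read 7.43, 7.52 and 7.34 with hPTH(1-34) and 6.32, 6.56 and 6.21 with vehicle (1.07 ± 0.11, adjusted p = 2.84e-06), and Sik3 and Sik2 were higher by 0.85 ± 0.08 and 0.51 ± 0.11. Hdac4, a class IIa histone deacetylase, read 7.98, 7.99 and 8.09 with hPTH(1-34) and 6.78, 6.85 and 6.97 with vehicle (1.15 ± 0.10, adjusted p = 2.96e-07), whereas Hdac5, Hdac7 and Hdac9 of the same class were not called, at 0.04 ± 0.09, 0.03 ± 0.09 and -0.11 ± 0.09. Sik2 and these last histone deacetylases were named after their values were seen. The pseudokinase Trib2 rose by 1.24 ± 0.11. The LIM protein Lmcd1 read 5.48, 5.60 and 5.70 with hPTH(1-34) and 6.75, 6.59 and 6.68 with vehicle (-1.08 ± 0.10, adjusted p = 7.73e-07), and Fhl2, another LIM protein, fell by 0.68 ± 0.13. Maml2, a Notch coactivator, and Cited2, a CBP/p300 ligand, were lower at -0.82 ± 0.09 and -0.57 ± 0.11. Of 86 histone-modifying and DNA-methylation enzymes, 2 were higher and 8 lower, led by the demethylase Tet1 (-0.61 ± 0.12) and the acetyltransferase Kat2b (-0.52 ± 0.08).

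**Figure D3:**
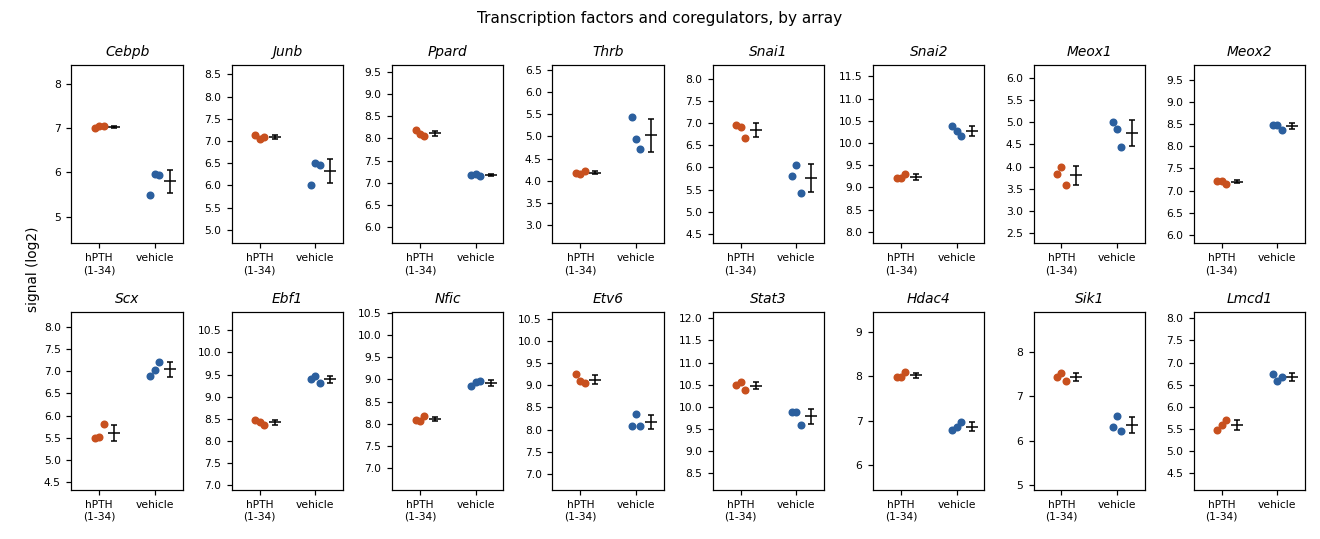
Log2 signal of 16 transcription factors and coregulators in each array, with hPTH(1-34) on the left (orange) and vehicle on the right (blue), 3 arrays each. The black mark gives mean and SD, and every panel spans 4 log2 units. In all 16 panels the points of the groups do not overlap.

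Receptors for peptide and lipid messengers followed. Of 272 hormone, neurotransmitter and lipid G protein-coupled receptors, 18 were higher and 11 lower (10.7%). Bdkrb1, the inducible B1 receptor for bradykinin, read 6.42, 6.27 and 6.14 with hPTH(1-34) and 4.71, 4.08 and 4.24 with vehicle, a 3.82-fold rise (adjusted p = 2.04e-08). The sphingosine 1-phosphate receptors S1pr1 and S1pr3 rose together. S1pr1 read 10.30, 10.24 and 10.19 with hPTH(1-34) and 8.88, 8.94 and 8.83 with vehicle (1.36 ± 0.08, adjusted p = 2.25e-09), and S1pr3 differed by 1.19 ± 0.09. S1pr2, of the same family, differed by 0.23 ± 0.08 and was not called. Sphk1, the kinase that makes sphingosine 1-phosphate, was higher at 1.09 ± 0.17 (adjusted p = 0.000269).

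The receptors that fell included Gpr176, an orphan receptor known from the circadian clock, at 6.43, 6.29 and 6.53 with hPTH(1-34) and 7.88, 7.84 and 7.58 with vehicle (-1.35 ± 0.10, adjusted p = 2.74e-08). Agtr1b, a mouse angiotensin II receptor, differed by -1.33 ± 0.15, and Lpar4, a lysophosphatidic acid receptor, by -1.15 ± 0.11. F2r, the thrombin receptor, was not called at 0.15 ± 0.08. Frizzled and adhesion receptors had 4 higher and 8 lower of 38 (31.6%). Fzd6 rose by 1.03 ± 0.09, while Fzd8 read 6.56, 6.49 and 6.41 with hPTH(1-34) and 7.56, 7.66 and 7.54 with vehicle (-1.10 ± 0.09, adjusted p = 8.68e-08) and Fzd2 fell by 0.72 ± 0.11. These Frizzled proteins bind Wnt ligands, and their genes thus split between the directions. The adhesion receptors split likewise, with Adgrg1 at 0.91 ± 0.15, Adgrg2 at -0.97 ± 0.18 and Adgrg6 at -0.74 ± 0.09.

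Receptor tyrosine kinases, the growth factor receptors, had 5 members higher and 12 lower of 56 (30.4%). Ret, the signalling receptor for the GDNF family, read 5.82, 5.90 and 6.32 with hPTH(1-34) and 4.03, 4.32 and 4.21 with vehicle, 3.55-fold higher (adjusted p = 5.97e-06). The genes of its ligand-binding partners moved in opposite directions: Gfra1 differed by 1.32 ± 0.12 and Gfra2 by -1.11 ± 0.09, both called and both looked up after the value of Ret was seen. Ror1, a Wnt5a receptor, read 8.28, 8.40 and 8.11 with hPTH(1-34) and 7.22, 7.21 and 6.79 with vehicle (1.19 ± 0.12, adjusted p = 1.33e-06), and Met, the receptor for hepatocyte growth factor, rose by 0.72 ± 0.16. Lower were the ephrin receptors Epha3 (-0.84 ± 0.07) and Ephb3 (-0.63 ± 0.08) and the neurotrophin-3 receptor Ntrk3 (-0.81 ± 0.14). The difference was 0.01 ± 0.07 for Fgfr2, -0.10 ± 0.08 for Axl and 0.21 ± 0.07 for Pdgfra, none called.

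Of 57 cytokine receptors, 14 were higher and 1 lower, or 24.6% called higher against 3.9% of all genes. Cntfr, the binding subunit for ciliary neurotrophic factor, read 9.63, 9.48 and 9.20 with hPTH(1-34) and 7.33, 7.32 and 6.79 with vehicle, 4.89-fold higher (adjusted p = 9.30e-09). Lifr, which signals with gp130 for leukaemia inhibitory factor and for ciliary neurotrophic factor, was the member that fell, at 7.59, 7.44 and 7.46 with hPTH(1-34) and 8.42, 8.55 and 8.63 with vehicle (-1.04 ± 0.09, adjusted p = 2.23e-07). Il6st, which encodes gp130, rose by 0.65 ± 0.08, and Osmr, the oncostatin M receptor, by 0.81 ± 0.08; these 2 were named after their values were seen.

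The receptor for interleukin-1, Il1r1, read 10.14, 10.17 and 10.05 with hPTH(1-34) and 8.74, 8.83 and 8.57 with vehicle (1.41 ± 0.10, adjusted p = 2.81e-08). The receptor chain for interleukin-4 and interleukin-13, Il4ra, read 9.63, 9.59 and 9.40 with hPTH(1-34) and 8.15, 8.13 and 8.20 with vehicle (1.38 ± 0.09, adjusted p = 8.25e-09). Il17ra, for interleukin-17, rose by 0.96 ± 0.10. Fainter transcripts that rose were Il18rap, at 4.39 ± 0.15 with hPTH(1-34) and 2.88 ± 0.22 with vehicle, and Il20ra, at 4.31 ± 0.19 with hPTH(1-34) and 3.11 ± 0.37 with vehicle (SD, n = 3 each). Interferon receptors were not called: Ifnar1 differed by 0.04 ± 0.07, Ifnar2 by 0.07 ± 0.08 and Ifngr1 by 0.13 ± 0.07. Of the 15 receptors called, 12 were called under every alternative processing. This share varied between lists. It was 7 of 8 for chemokines and 12 of 16 for hyaluronan, glycosaminoglycan and sulfation enzymes. It was 2 of 9 for innate immune receptors, 2 of 7 for the TNF receptor superfamily and 2 of 10 for histone-modifying and DNA-methylation enzymes. For named zinc finger factors it was 5 of 16 and for Zfp genes 6 of 20.

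Among other surface receptors, the TNF receptor superfamily had 5 higher and 2 lower of 28 (25.0%), and Tnfrsf21, a death-domain receptor, differed by 1.24 ± 0.10. Ackr3, which scavenges the chemokine CXCL12, rose by 1.24 ± 0.12 and Ackr4, a scavenger of other chemokines, fell by 0.78 ± 0.15. Of 47 guidance and Notch receptors, 4 were higher and 10 lower (29.8%). They included Lrig1, a negative regulator of growth factor receptors, at 1.26 ± 0.10, the hedgehog coreceptors Cdon and Boc at -0.66 ± 0.11 and -0.56 ± 0.09, and Notch3 at -0.57 ± 0.13. The neuropilins parted, Nrp1 at 0.48 ± 0.07 and Nrp2 at -0.47 ± 0.09. Of 25 integrin subunits, 1 was higher and 2 lower (12%): Itga9 at 0.84 ± 0.11, the collagen-binding Itga2 at -1.03 ± 0.12 and the laminin-binding Itga3 at -0.57 ± 0.12, which was not called with only the 6 arrays fitted (adjusted p = 0.0507), while Itgb1 and Itgb3 differed by -0.02 ± 0.07 and 0.02 ± 0.08. Olfactory and vomeronasal receptors, 1390 in all, had 10 calls, or 0.719%.

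Among 36 chemokines, the secreted attractants of leukocytes, limma called 8 higher (22.2%) and 0 lower, with 0 lower at an unadjusted p under 0.05. Ccl12, a monocyte attractant of the mouse, read 7.12, 7.26 and 6.68 with hPTH(1-34) and 5.12, 5.53 and 5.00 with vehicle (1.80 ± 0.15, adjusted p = 1.94e-07). Ccl2, the main monocyte attractant, read 7.87, 7.76 and 7.86 with hPTH(1-34) and 6.62, 6.70 and 6.72 with vehicle (1.15 ± 0.19, adjusted p = 0.000414), and Cxcl1, a neutrophil attractant, rose by 0.89 ± 0.20. Cxcl12, a retention signal for haematopoietic cells, was not called at -0.12 ± 0.10. Among innate immune receptors 7 were higher and 2 lower of 38, with the lectin Clec4e at 7.55, 7.78 and 7.79 with hPTH(1-34) and 6.11, 6.55 and 6.33 with vehicle (1.38 ± 0.18, adjusted p = 2.96e-05) and Tlr2 at 0.51 ± 0.11. Macrophages express these receptors as well, and the summed level of the 28 macrophage and osteoclast markers, as the log2 of the sum, was 14.24 to 14.38 with hPTH(1-34) and 14.26 to 14.47 with vehicle. Csf1r, Lyz2 and Cd68 of that list differed by -0.09 ± 0.09, -0.04 ± 0.10 and -0.07 ± 0.14. Which cells in the culture gave the change was not tested.

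Of 77 peptide hormone and vasoactive peptide genes, 8 were higher (10.4%) and 2 lower, with a median difference of 0.03. Gal, which encodes galanin, read 6.01, 5.68 and 5.70 with hPTH(1-34) and 3.41, 4.18 and 3.43 with vehicle, 4.36-fold higher (adjusted p = 2.71e-06). Vgf, a secreted precursor of neuroendocrine peptides, read 5.39, 5.75 and 5.46 with hPTH(1-34) and 4.31, 4.34 and 4.32 with vehicle (1.21 ± 0.16, adjusted p = 2.89e-05). Tac1, which encodes substance P, rose by 1.11 ± 0.17, with low levels of 3.72 ± 0.12 with hPTH(1-34) and 2.61 ± 0.13 with vehicle. Ptx3, a soluble pattern-recognition protein and the other of the 2 that fell beside adrenomedullin, read 7.62, 7.61 and 7.57 with hPTH(1-34) and 8.76, 8.69 and 8.63 with vehicle (-1.09 ± 0.08, adjusted p = 2.81e-08). The groups did not overlap for any of these 4 genes. Npy, Nucb2 and C1qtnf3 were not called, at 0.05 ± 0.09, -0.05 ± 0.08 and -0.14 ± 0.08.

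Growth factor ligands had 4 members higher and 8 lower of 78, and the matricellular CCN genes made up 5 of the 8. Ccn1 read 9.28, 9.06 and 9.27 with hPTH(1-34) and 10.05, 10.15 and 10.05 with vehicle (-0.88 ± 0.10, adjusted p = 4.93e-06). Ccn2, also called connective tissue growth factor, read 5.96, 5.72 and 6.32 with hPTH(1-34) and 7.01, 7.11 and 7.09 with vehicle (-1.07 ± 0.17, adjusted p = 0.000337). Ccn4 and Ccn5 fell, at -0.77 ± 0.10 and -0.57 ± 0.10. The neuregulin gene Nrg1 was lower (-0.75 ± 0.13), and the angiogenic factor Vegfa higher (0.64 ± 0.12). Among TGF-beta family ligands and inhibitors, 4 were higher and 6 lower of 55: the activin subunit Inhba rose by 0.92 ± 0.12, the activin-binding follistatin gene Fst differed by -0.55 ± 0.09, and Tgfb2 by -0.64 ± 0.09.

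Of 43 semaphorins, Slits, netrins, ephrins and Notch ligands, which act between cells in guidance and patterning, 3 were higher and 3 lower (14.0%). Jag1, a Notch ligand, read 7.22, 7.00 and 7.29 with hPTH(1-34) and 8.47, 8.41 and 8.51 with vehicle, 2.45-fold lower (adjusted p = 6.08e-09). Efna1, an ephrin, rose by 0.62 ± 0.10. Slit2 and Slit3 were not called, at -0.11 ± 0.06 and 0.20 ± 0.08. Of 65 interleukins and haematopoietic cytokines, 1 was higher and 1 lower (3.08%), and Csf1 and Il33 differed by -0.26 ± 0.08 and 0.10 ± 0.09 without a call.

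**Figure D4:**
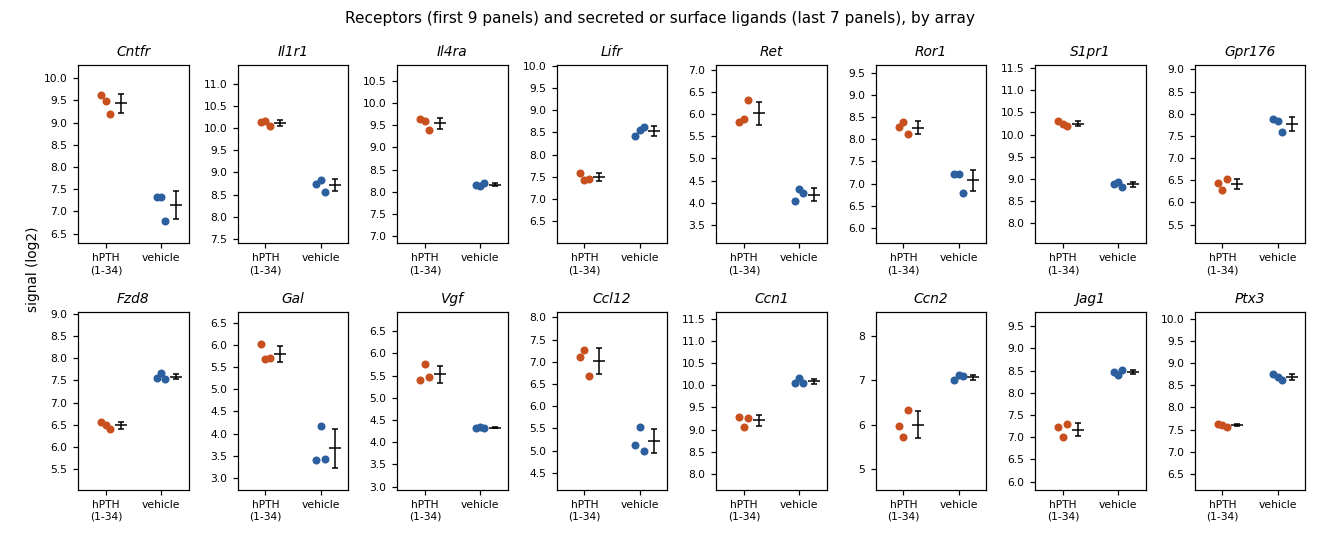
Log2 signal in each array for 9 receptors and 7 secreted or surface ligands, with hPTH(1-34) on the left (orange) and vehicle on the right (blue), 3 arrays each. The black mark gives mean and SD and each panel spans 4 log2 units. Lifr, Gpr176, Fzd8, Ccn1, Ccn2, Jag1 and Ptx3 are lower with hPTH(1-34) and the other 9 genes higher, and no panel shows overlapping groups.

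Collagens, the main fibres of bone matrix, gave no call: limma called 0 of 44 genes, with 4 at an unadjusted p under 0.05, and Col1a2 and Col8a1 differed by -0.03 ± 0.06 and -0.14 ± 0.06. Of 119 matrix glycoproteins and proteoglycans, 10 were higher and 7 lower. Prg4, the joint lubricant lubricin, read 8.43, 8.28 and 8.15 with hPTH(1-34) and 6.06, 6.05 and 5.87 with vehicle, 4.9-fold higher (adjusted p = 1.29e-09), and Vcan, the hyaluronan-binding proteoglycan versican, rose by 0.81 ± 0.11. The laminin chain gene Lama4 read 8.52, 8.48 and 8.60 with hPTH(1-34) and 9.56, 9.62 and 9.52 with vehicle (-1.03 ± 0.08, adjusted p = 2.74e-08), and Thbs1, for thrombospondin-1, fell by 0.82 ± 0.07.

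The list of hyaluronan, glycosaminoglycan and sulfation enzymes had 11 members higher and 5 lower of 65 (24.6%). Genes of 3 enzymes on the routes to sugar precursors were among those higher. Gfpt2, which opens the hexosamine pathway, read 9.90, 9.99 and 9.80 with hPTH(1-34) and 7.81, 7.66 and 7.36 with vehicle (2.29 ± 0.11, adjusted p = 7.61e-11). Uap1, which makes UDP-N-acetylglucosamine, read 9.41, 9.48 and 9.31 with hPTH(1-34) and 7.36, 7.41 and 7.38 with vehicle (2.02 ± 0.08, adjusted p = 3.99e-12). Ugdh, which makes UDP-glucuronate, read 11.47, 11.45 and 11.49 with hPTH(1-34) and 9.34, 9.24 and 9.33 with vehicle (2.17 ± 0.08, adjusted p = 1.29e-12). These 3 enzymes supply the sugar precursors of hyaluronan, and their genes were 4.88-fold, 4.05-fold and 4.49-fold higher, with every hPTH(1-34) array above every vehicle array. The chondroitin and N-acetylgalactosamine sulfotransferase genes Chst11 and Chst8 rose by 1.64 ± 0.12 and 2.46 ± 0.18. Has2 was called higher at 1.89 and Cemip lower at -1.77. Cd44, the hyaluronan receptor, and Cemip2 were not called at 0.03 ± 0.07 and 0.07 ± 0.07.

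The list of metalloproteases, ADAMs and TIMPs, the last being protease inhibitors, had 9 members higher and 7 lower of 94. Enpep, the aminopeptidase that cleaves angiotensin II, read 8.05, 8.06 and 7.88 with hPTH(1-34) and 5.83, 5.80 and 5.71 with vehicle, 4.65-fold higher (adjusted p = 3.52e-10). Ece1, the endothelin-converting enzyme, rose by 0.89 ± 0.09, and the procollagen and proteoglycan proteases Adamts3 and Adamts9 by 1.20 ± 0.13 and 0.91 ± 0.12. Mmp11 fell by 0.67 ± 0.13, and Mmp2 was not called at 0.02 ± 0.06. In the list of cathepsins, serine proteases, serpins and cystatins 6 were higher and 3 lower of 150 (6.0%). The anticoagulant receptor thrombomodulin, Thbd, read 9.73, 9.72 and 9.62 with hPTH(1-34) and 8.16, 8.20 and 8.09 with vehicle (1.54 ± 0.07, adjusted p = 7.75e-11), whereas F3, for tissue factor, which starts coagulation, was lower at -0.74 ± 0.11. The serine protease gene Htra4 and the protease inhibitor gene Slpi were higher at 1.29 ± 0.22 and 1.05 ± 0.12.

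Genes for inhibitors that act in feedback on receptor signalling were called often. Of 51 genes for Sprouty, SOCS and other feedback inhibitors, 14 were higher and 5 lower (37.3%). Spry3, a Sprouty protein, read 5.92, 6.24 and 5.64 with hPTH(1-34) and 4.28, 4.31 and 3.95 with vehicle (1.75 ± 0.19, adjusted p = 2.70e-06). Bcl3, an atypical IkappaB protein, read 8.23, 8.17 and 7.85 with hPTH(1-34) and 6.46, 6.52 and 6.23 with vehicle (1.68 ± 0.12, adjusted p = 2.81e-08). Socs2, Nfkbie and Tnip3, inhibitors in cytokine and NF-kappaB signalling, rose by 0.91 ± 0.16, 0.82 ± 0.13 and 1.03 ± 0.14. The insulin receptor adaptor Grb14 and the Dishevelled-binding Wnt inhibitor Nkd1 fell, at -0.94 ± 0.15 and -1.03 ± 0.11. Of 25 cyclic nucleotide phosphodiesterases 6 were higher and 0 lower by limma (2 lower at an unadjusted p under 0.05). Among the 6 were the cyclic AMP-degrading Pde4d, Pde4b and Pde7b, by 1.04 ± 0.13, 0.96 ± 0.14 and 1.07 ± 0.14. Pde10a and Pde3b rose further, by 2.05 and 1.49, and Pde1a by 0.66. Of 48 cyclase, protein kinase A and anchor genes 2 were higher and 3 lower, with Prkacb not called at -0.17 ± 0.08.

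The phosphoinositide pathway leaned downward, with 5 higher and 15 lower of 82 (18.3% lower). Irs1, the adaptor of the insulin and IGF receptors, read 7.68, 7.63 and 7.87 with hPTH(1-34) and 8.94, 8.99 and 8.99 with vehicle, 2.37-fold lower (adjusted p = 6.18e-09). Pik3ip1, an inhibitor of PI 3-kinase, and Pik3r3, a regulatory subunit, fell, at -1.07 ± 0.11 and -0.79 ± 0.11. The diacylglycerol kinase gene Dgkh was higher at 1.55 ± 0.14, and Akt2 and Rptor were not called at 0.09 ± 0.07 and -0.03 ± 0.08. Among calcium and energy kinases 3 were higher and 9 lower of 61: Camk4, a nuclear calmodulin kinase, rose by 1.30 ± 0.12, while the AMPK catalytic gene Prkaa2 and the related Nuak1 differed by -1.04 ± 0.17 and -1.17 ± 0.13. Of 70 G protein, RGS and arrestin genes 5 were higher and 7 lower, including Rgs4 (-1.18 ± 0.18) and the inhibitory subunit Gnai1 (-0.80 ± 0.10). Dock9, an exchange factor for Cdc42, read 8.80, 8.67 and 8.64 with hPTH(1-34) and 6.25, 6.29 and 6.29 with vehicle, 5.38-fold higher (adjusted p = 8.97e-13), and Gem, for an inhibitor of calcium channels, rose by 1.56 ± 0.14. In the MAP kinase list, Map2k1 differed by 0.78 ± 0.10 and Map2k6, which activates p38, by -1.06 ± 0.12.

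Channels and transporters had single strong members rather than broad shifts. Of 89 potassium channel genes, 3 were higher and 1 lower (4.49%). Kcnk10, a background potassium channel, read 5.70, 5.24 and 5.90 with hPTH(1-34) and 3.41, 3.34 and 3.48 with vehicle, 4.61-fold higher (adjusted p = 3.38e-07), and the subunit gene Kcne4 rose by 1.63 ± 0.09. Cbarp, a regulator of voltage-gated calcium channels, read 8.26, 8.14 and 7.82 with hPTH(1-34) and 5.54, 5.64 and 5.20 with vehicle, 6.12-fold higher (adjusted p = 2.47e-09). The water channels Aqp5 and Aqp1 rose by 1.60 ± 0.11 and 0.95 ± 0.11. Of 340 solute carriers, 25 were higher and 17 lower (12.4%), among them the amino acid transporters Slc38a3 at 1.69 ± 0.15 and Slc38a4 at -1.16 ± 0.09, the myo-inositol carrier Slc2a13 at 1.53 ± 0.11 and the zinc importer Slc39a14 at 1.21 ± 0.08.

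In metabolism, a list of 148 retinoid, aldehyde and cytochrome P450 genes had 8 higher and 4 lower, a share of 8.11%, near that of all genes. Rdh10, which makes retinaldehyde, read 7.11, 6.95 and 7.11 with hPTH(1-34) and 5.42, 5.32 and 5.46 with vehicle (1.66 ± 0.13, adjusted p = 8.39e-08). Aldh1a3, which makes retinoic acid, and Crabp2, which carries it to the nucleus, rose by 1.36 ± 0.20 and 1.25 ± 0.12. Adh1, an alcohol dehydrogenase, and Aldh1a1, which also makes retinoic acid, were lower at -0.93 ± 0.17 and -0.43 ± 0.09, with Aldh1a1 not called when only the 6 arrays were fitted (adjusted p = 0.0514). The aminotransferases Got1 and Gpt2 were higher at 1.80 ± 0.10 and 1.16 ± 0.11, and so were Nmnat2, an NAD-synthesising enzyme, at 1.39 ± 0.13, Cidea, a lipid droplet protein, at 1.68 ± 0.20, and Acsl4, an acyl-CoA synthetase, at 1.26 ± 0.09. The pyruvate dehydrogenase phosphatase Pdp1 was lower at -1.09 ± 0.11. Genes of basic cell machinery were little called: 1 of 79 oxidative phosphorylation genes, and 0 of 67 ribosomal protein genes by limma (2 at an unadjusted p under 0.05), with Rpl27 at 0.00 ± 0.07 and Rps6 at 0.01 ± 0.07. Cell cycle and mitosis genes had 14 lower and, by limma, 0 higher of 123 (3 higher and 50 lower at an unadjusted p under 0.05), with a median difference of -0.2. Of the 14, 1, Anln (-0.55 ± 0.08), was called under every alternative. Chaperone genes leaned upward, 10 higher and 1 lower of 95, led by Hsph1 at 1.71 ± 0.09.

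Cytoskeletal genes had 17 higher and 19 lower of 205. Synpo2, an actin-bundling protein of muscle, read 6.45, 6.43 and 6.34 with hPTH(1-34) and 4.53, 4.33 and 4.42 with vehicle, 3.94-fold higher (adjusted p = 1.29e-09), and the motor gene Myo6 rose by 1.40 ± 0.09. The actin and membrane-bending gene Mtss2 read 6.47, 6.51 and 6.48 with hPTH(1-34) and 7.95, 8.15 and 7.86 with vehicle (-1.50 ± 0.14, adjusted p = 7.97e-07). The calponin genes Cnn1 and Cnn2 parted, at 2.10 ± 0.08 and -0.82 ± 0.09. The focal adhesion gene Vcl, for vinculin, and the actin-linked Pdlim2 fell, at -0.69 ± 0.08 and -1.03 ± 0.13. Acta2, for smooth muscle actin, differed by -0.25 ± 0.09 and was not called. Of 167 cell adhesion genes 7 were higher and 9 lower, with the nectin gene Nectin1 at 9.30, 9.22 and 9.46 with hPTH(1-34) and 6.84, 6.97 and 7.10 with vehicle (2.36 ± 0.12, adjusted p = 1.35e-10) and Slitrk6 at -1.45 ± 0.21.

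Of the 253 genes changed at least 2-fold, 92 were in none of the lists. Baalc, a gene of neuroectodermal and blood progenitor tissue, read 6.99, 6.71 and 6.73 with hPTH(1-34) and 4.57, 4.01 and 4.25 with vehicle (2.53 ± 0.19, adjusted p = 2.81e-08). Rflnb, whose product binds filamin, read 5.11, 5.06 and 5.35 with hPTH(1-34) and 6.86, 6.89 and 6.56 with vehicle (-1.60 ± 0.15, adjusted p = 5.33e-07). Among genes named after their values were seen, Prok2, a secreted prokineticin, differed by 2.33 ± 0.25, the costimulatory ligand Icosl by 2.05 ± 0.11, the kinesin Kif21a by 2.51 ± 0.14, and the iodotyrosine deiodinase Iyd by 2.30 ± 0.21. Each of these 4 was called. Dio2, the deiodinase that activates thyroid hormone, read 6.13, 6.07 and 5.46 with hPTH(1-34) and 4.16, 3.95 and 3.75 with vehicle, 3.82-fold higher (adjusted p = 3.18e-07), and its groups did not overlap.

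Promoter windows from RefSeq, on build GRCm38.p6, reached from 250 bases before to 50 after a gene's start and were at hand for 127 of the 182 genes at least 2-fold higher, 51 of the 71 at least 2-fold lower and 16990 of all genes measured. A gene can have several windows, and it was counted if any of them held the letters. The full cyclic AMP response element, TGACGTCA, reads the same on both strands. With a window at hand, 8 genes (6.3%) that rose held it, 1 (1.96%) that fell and 2.65% of all genes. Its short form TGACG, searched on both strands and contained in the full element, was in 39.4%, 25.5% and 26.8% in the same order. The AP-1 letters TGANTCA were in 11.8%, 9.8% and 8.42%, and the NR4A letters AAAGGTCA in 1.57%, 1.96% and 1.54%. These shares are descriptions without a test, and a match is not evidence of binding. The windows shown are those of the 4 genes with the highest differences among the 8 with the full element, which stands in capitals, and of the 2 genes with the lowest differences among those with a window at hand, which hold neither form. Daam2 and Zdbf2 have 2 windows each, of which 1 with the element is shown. The element began at position -95 from the gene start in Dio2 (chr12:90738989-90739288, minus strand), at -27 in Daam2 (chr17:49564288-49564587, minus strand), at -59 in Zdbf2 (chr1:63273019-63273318, plus strand) and at -178 in Peg3 (chr7:6730370-6730669, minus strand). The windows of Dusp27 (chr1:166127849-166128148) and Bmp4 (chr14:46390620-46390919) are on the minus strand. All are written 5′ to 3′ on the gene's strand.
Dio2: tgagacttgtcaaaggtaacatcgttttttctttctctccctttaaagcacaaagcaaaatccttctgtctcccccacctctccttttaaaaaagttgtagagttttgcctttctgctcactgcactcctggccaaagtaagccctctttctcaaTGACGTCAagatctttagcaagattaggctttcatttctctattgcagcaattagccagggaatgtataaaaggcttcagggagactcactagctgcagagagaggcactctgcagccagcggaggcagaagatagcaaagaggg
Daam2: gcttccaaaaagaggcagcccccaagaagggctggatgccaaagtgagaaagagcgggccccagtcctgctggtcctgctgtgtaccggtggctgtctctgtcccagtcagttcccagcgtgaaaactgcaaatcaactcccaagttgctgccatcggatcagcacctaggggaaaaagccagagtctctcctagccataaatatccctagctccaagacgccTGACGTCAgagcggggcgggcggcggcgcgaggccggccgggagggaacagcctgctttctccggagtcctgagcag
Zdbf2: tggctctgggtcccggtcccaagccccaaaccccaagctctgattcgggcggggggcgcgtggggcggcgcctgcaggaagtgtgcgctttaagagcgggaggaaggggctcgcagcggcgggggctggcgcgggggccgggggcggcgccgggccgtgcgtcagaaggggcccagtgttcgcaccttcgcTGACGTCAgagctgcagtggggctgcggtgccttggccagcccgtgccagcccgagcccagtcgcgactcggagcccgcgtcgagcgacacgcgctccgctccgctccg
Peg3: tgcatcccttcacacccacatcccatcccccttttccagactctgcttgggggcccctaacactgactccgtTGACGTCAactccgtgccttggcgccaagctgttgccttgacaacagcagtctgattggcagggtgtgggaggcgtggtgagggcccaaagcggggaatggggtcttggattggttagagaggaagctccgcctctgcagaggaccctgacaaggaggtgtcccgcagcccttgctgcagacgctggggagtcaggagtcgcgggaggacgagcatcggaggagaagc
Dusp27: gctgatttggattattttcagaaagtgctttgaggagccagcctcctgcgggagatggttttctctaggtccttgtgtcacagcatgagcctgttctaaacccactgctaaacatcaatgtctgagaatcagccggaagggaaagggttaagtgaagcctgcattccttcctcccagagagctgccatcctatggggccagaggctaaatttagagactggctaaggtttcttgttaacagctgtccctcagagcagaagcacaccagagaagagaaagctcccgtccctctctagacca
Bmp4: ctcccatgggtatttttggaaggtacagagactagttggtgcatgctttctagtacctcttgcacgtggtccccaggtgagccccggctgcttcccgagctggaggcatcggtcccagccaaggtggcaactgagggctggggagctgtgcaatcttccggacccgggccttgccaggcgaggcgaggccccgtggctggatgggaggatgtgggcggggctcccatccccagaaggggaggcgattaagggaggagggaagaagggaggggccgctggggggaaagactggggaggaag

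Of the genes with these windows, Daam2, a formin-related protein that also acts in Wnt signalling, read 7.76, 7.32 and 7.78 with hPTH(1-34) and 5.84, 6.01 and 5.61 with vehicle (1.80 ± 0.15, adjusted p = 1.28e-07). The paternally expressed imprinted genes Zdbf2 and Peg3 both rose. Zdbf2 read 5.46, 6.05 and 6.36 with hPTH(1-34) and 4.18, 4.45 and 4.12 with vehicle (1.71 ± 0.19, adjusted p = 4.74e-06). Peg3 read 10.63, 10.64 and 10.87 with hPTH(1-34) and 9.31, 9.22 and 9.34 with vehicle (1.42 ± 0.09, adjusted p = 2.47e-09). Dusp27, of the dual-specificity phosphatase family by name, and the bone morphogenetic protein gene Bmp4, whose windows held no element, differed by -2.09 ± 0.20 and -1.97 ± 0.15.

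Other PTH fragments at 100 nM and 4 h were compared directly with hPTH(1-34), 3 arrays each, in 3 contrasts that share the hPTH(1-34) arrays with the comparison above, each with its own adjustment over all genes. Against hPTH(7-34), which lacks the first residues of the hormone, 2409 genes were called, 10.9% of those tested, 931 higher and 1478 lower with hPTH(1-34). Against PTH(1-36), 1 gene was called, 0.00451%: Prg4, at 8.29 ± 0.14 with hPTH(1-34) and 7.28 ± 0.34 with PTH(1-36) (SD, n = 3 each; difference 1.01 ± 0.13, adjusted p = 0.0144). No gene was called there when hPTH(1-34) replicate 1 or 2 or PTH(1-36) replicate 2 or 3 was left out. Against hPTH(1-31), limma called 0 genes, 0.0%, with 994 at an unadjusted p under 0.05, and 0 under each alternative run. This does not show equal responses: over the 1917 genes the median 95% interval reached 0.22 to either side of the estimate.

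Ugdh, Cntfr and Irs1 were called in the direct comparison with hPTH(7-34), while Ccl2, Clec4e, Tnip3 and Nfkbie were not; these genes were picked after their values were seen. Ugdh stood at 11.47 ± 0.02 with hPTH(1-34) and 9.30 ± 0.04 with hPTH(7-34) (SD, n = 3 each; adjusted p = 1.26e-12). Cntfr stood at 9.44 ± 0.22 with hPTH(1-34) and 7.10 ± 0.15 with hPTH(7-34) (adjusted p = 6.97e-09), and Irs1 at 7.73 ± 0.13 with hPTH(1-34) and 8.98 ± 0.07 with hPTH(7-34) (adjusted p = 5.19e-09). For the monocyte attractant, the lectin and the NF-kappaB inhibitor genes the interval of each direct difference spanned 0. Ccl2 stood at 7.83 ± 0.06 with hPTH(1-34) and 7.84 ± 0.50 with hPTH(7-34), with a 95% interval of the difference of -0.40 to 0.39. Clec4e stood at 7.71 ± 0.14 with hPTH(1-34) and 7.78 ± 0.36 with hPTH(7-34), interval -0.45 to 0.30, and Tnip3 at 7.39 ± 0.02 with hPTH(1-34) and 7.45 ± 0.25 with hPTH(7-34), interval -0.35 to 0.23. Nfkbie stood at 6.95 ± 0.08 with hPTH(1-34) and 7.11 ± 0.29 with hPTH(7-34), interval -0.43 to 0.12. None of these last 4 genes was called in the direct comparison, although each rose over vehicle with hPTH(1-34).

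**Figure D5:**
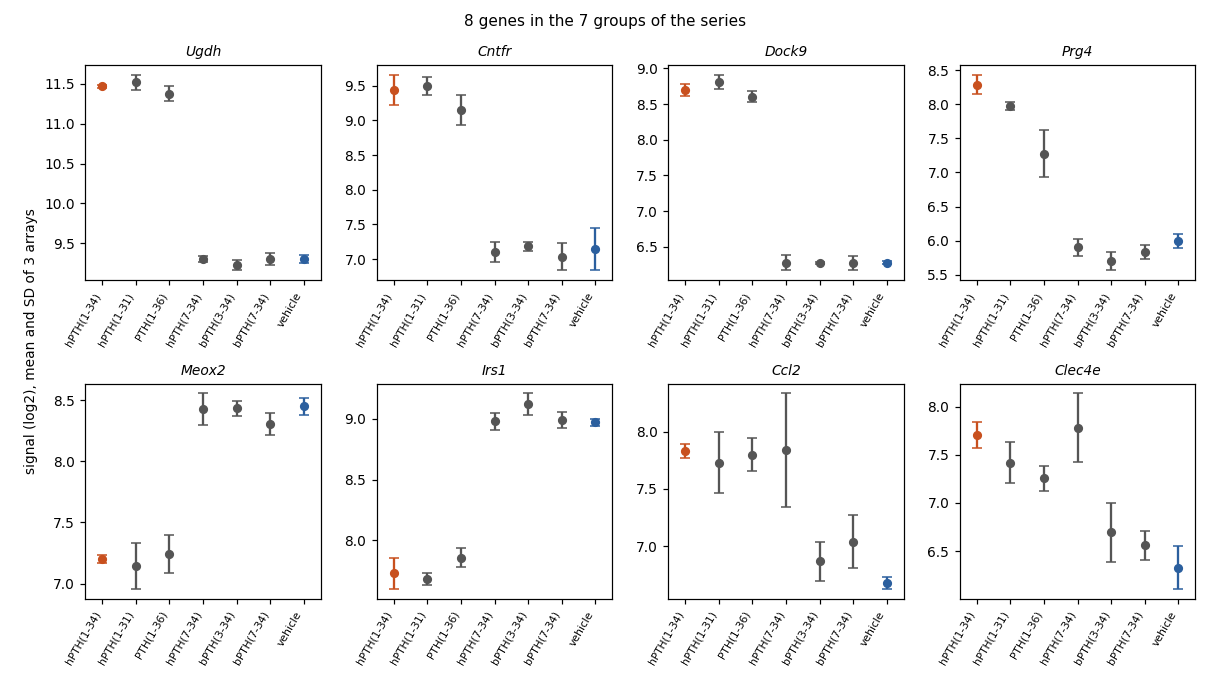
Mean log2 signal and SD of 3 arrays for 8 genes in hPTH(1-34) (orange), the 5 other analogs (grey; bPTH(7-34) at 1000 nM, the others at 100 nM) and vehicle (blue). In the first 6 panels hPTH(1-34), hPTH(1-31) and PTH(1-36) lie away from vehicle and the 3 truncated fragments near it. In the panels of Ccl2 and Clec4e, hPTH(7-34) lies at the level of hPTH(1-34).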

How the data were processed

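Total RNA from 21 cultures was measured on 1-colour Affymetrix arrays. The deposited table holds normalized signals, read here as log2 values from their range; per the submitters' processing notes the authors used RMA and Affymetrix Expression Console, without stated versions, settings or base of the logarithm, so every difference and fold rests on that reading. RMA compresses small differences of dim probes. Of 41345 transcript clusters, 23521 carried 1 gene symbol in the platform annotation, which gave 22180 genes. No array was left out.

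limma 3.58.1 in R 4.3.3 (lmFit and eBayes, two-sided, 7 groups, all 21 arrays) gave differences, standard errors and Benjamini-Hochberg adjusted p-values, and calls were made at 0.05. The fit was tested on simulated data. Precision follows from the number of arrays rather than from depth: the median 95% interval of a called gene reached 0.22 to either side.

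The comparison, the gene lists and the rule for named genes were chosen with earlier results of these data known. The rule names the 10 highest and 10 lowest called genes, up to 6 called members of a list in each direction (all in lists of 20 or fewer) and its 3 members not called with the smallest errors, all cell type markers, and called genes with a printed promoter. Alternatives changed the arrays fitted, the replicate block, the variance prior, a filter on dim genes, the normalization and the choice of transcript clusters, or left out each array. Some of the gene lists are not reported here.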

Additional observations from a re-analysis of the deposited data

Results flagged for a closer look

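Of 17824 transcript clusters without a single gene symbol, which the gene comparison does not use, 219 were called when all clusters were tested together, 120 higher and 99 lower with hPTH(1-34). Transcript cluster 17212211 differed by 3.87 ± 0.09 (SE), at 9.36 with hPTH(1-34) and 5.48 with vehicle (means of 3 arrays, adjusted p = 4.11e-14, limma). Transcript cluster 17240231 differed by -1.85 ± 0.08, at 6.30 with hPTH(1-34) and 8.16 with vehicle (adjusted p = 4.17e-10).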

How the results depend on the processing

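Of the 1917 genes called, 817 were called under every alternative and 1066 in every fit that left out 1 array; of the 253 changed at least 2-fold, 243 were called under every alternative. No call changed its direction under any alternative run. The count was most sensitive to the arrays fitted: with only the 3 hPTH(1-34) and 3 Vehicle arrays it was 936, 492 higher and 444 lower, a fit with fewer samples to estimate the spread. Leaving out each array in turn gave 1421 to 1677 calls. Under the other alternatives the count ranged from 1682 with all transcript clusters tested together to 2507 with dim genes left out, which tests 11090 genes. The split moved to 1051 higher and 1456 lower with dim genes left out. With a replicate block 2190 genes were called, 953 higher and 1237 lower. Same-numbered arrays of the 2 groups deviated together at r = -0.014, 0.025 and 0.095, and differently numbered arrays at r = -0.084 to 0.062. These ranges overlap, although the highest r was between same-numbered arrays. The main fit did not take the numbers to pair the samples, and these few values cannot decide whether they do. Against hPTH(7-34), 1700 to 2133 genes were called without 1 array, 2826 with the replicate block and 3034 with dim genes left out. Against PTH(1-36), 0 to 3 were called without 1 array, 1 with the replicate block and 3 with dim genes left out. Against hPTH(1-31), 0 were called in every fit. Of the calls, 158 fell among the genes below the median level, and the part of low signal in this was not tested.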
